A study of Drosophila melanogaster with 6 samples.

Results

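Chromosome 4 of Drosophila melanogaster held 184 of the 7007 regions in which Jarid2 or Polycomblike (Pcl) was called, and 337 of the 12061 single peaks. The members are every peak placed on chromosome 4 in the peak lists of 4 chromatin immunoprecipitation (ChIP-seq) libraries, and the regions made by merging those peaks wherever they overlapped or touched. Each region was marked by the lists that gave it a peak.

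The first group was a pair of libraries, Jarid2 A and Jarid2 B, from embryos that expressed Jarid2 with a BioTAP tag. The second was a pair, Pcl A and Pcl B, from embryos that expressed Pcl with the same tag. BioTAP is an affinity tag that lets a protein be purified in consecutive steps, here with IgG and afterwards with streptavidin. All embryos were 12 to 24 h old and were whole, so each value is an average over the tissues of the embryo. The promoter that drives the tagged proteins and the strain are not given in the labels. An input library accompanied each protein, and inputs were not analysed here. Proteins are therefore compared with each other and chromosome 4 with the other arms. Nothing in the labels says that libraries A and B came from separate collections of embryos, so the spread between them may be technical.

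Jarid2 and Pcl are accessory subunits of Polycomb repressive complex 2 (PRC2), the enzyme that methylates lysine 27 of histone H3 and keeps developmental genes silent. Pcl and Jarid2 belong to alternative forms of the complex. Jarid2 works beside Jing, the fly relative of AEBP2, and Pcl marks the other form. Chromosome 4, the dot chromosome, is the smallest of the fly chromosomes. It is known for a mixed chromatin in which HP1a and methylated lysine 9 of histone H3, marks of heterochromatin, lie over and between active genes, many of them coated by the protein POF. It also carries developmental regulators such as eyeless, which directs eye development, and cubitus interruptus, the transcription factor at the end of the Hedgehog pathway. No gene annotation of the genome build of the lists (dm3) was used, so no region below is assigned to a gene and no sequence is shown.

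The lists held 1916 and 1055 peaks for Jarid2 A and B, and 5173 and 3917 peaks for Pcl A and B, over all sequences. The number of reads behind each list is unknown, and it sets how many weak sites can be called. The fold of a peak is the enrichment at its highest point over the background that the authors' caller assigned there, and all folds are the authors' values. Folds were used to rank or describe peaks within a list. The names of the lists place the proteins on different sequencing lanes, so protein and lane cannot be told apart in any difference between Jarid2 and Pcl given here.

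Peaks of both proteins were denser on chromosome 4 than on any other main arm. The highest peak end on chromosome 4 was at position 1323858, which was taken as its length, 1.32 Mb. Jarid2 A had 29 peaks on it, Jarid2 B 19, Pcl A 160 and Pcl B 129. These counts gave 21.9 peaks per Mb in Jarid2 A on chromosome 4, against 15.8 on the other 5 arms together, a ratio of 1.39. In Jarid2 B there were 14.4 peaks per Mb on chromosome 4 and 8.75 on the other arms, a ratio of 1.64. Pcl gave a larger contrast in both libraries. Pcl A had 121 peaks per Mb on chromosome 4 and 42.5 on the other arms, a ratio of 2.85. Pcl B had 97.4 peaks per Mb on chromosome 4 and 32.0 on the other arms, a ratio of 3.05.

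Chromosome 4 ranked first of the 6 arms in all 4 lists, but the margin over the next arm differed between the proteins. For Jarid2 A the next arm, 2L, reached 19.7 peaks per Mb, close to the 21.9 of chromosome 4. For Jarid2 B the next arm, again 2L, reached 10.5, beside 14.4 on chromosome 4. For Pcl the next arm was 3R, with 56.6 peaks per Mb in Pcl A and 49.8 in Pcl B, less than the 121 and 97.4 of chromosome 4 in those lists. The density ratio averaged 1.08 ± 0.57 on the log2 scale (SD, n = 4 libraries) and was above 0 in 4 of 4. The exact sign-flip permutation test over libraries, two-sided, gave p = 0.13, which is the smallest p that 4 libraries can give, so the design cannot pass a threshold of 0.05.

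**Figure D1:**
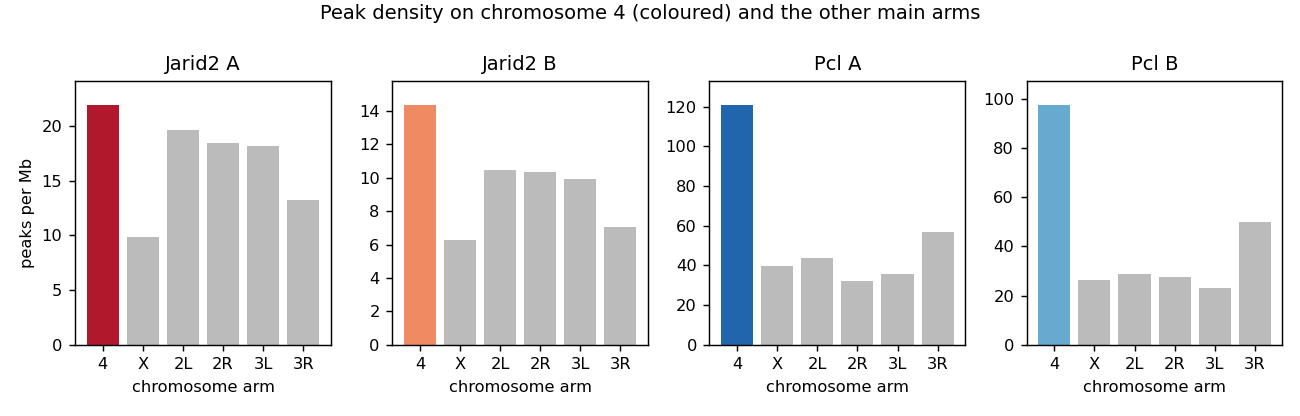
Peaks per Mb (vertical axis, from 0, with its own scale in each panel) on chromosome 4 in colour and on arms X, 2L, 2R, 3L and 3R in grey, with 1 panel for each library and 1 bar for each arm. Chromosome 4 has the tallest bar in all 4 panels, at 21.9 and 14.4 peaks per Mb in Jarid2 A and B, and at 121 and 97.4 in Pcl A and B.

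The excess of peaks on chromosome 4 was smaller for Jarid2 than for Pcl in these libraries. The log2 density ratio averaged 0.59 ± 0.17 for Jarid2 and 1.56 ± 0.07 for Pcl (SD, n = 2 libraries each), and the ranges did not overlap. The difference, Jarid2 minus Pcl, was -0.97 on the log2 scale, with p = 0.33 by an exact permutation test, two-sided, the smallest p that the design allows. Without peaks on a background over 3 times the lowest of their list the difference was -0.57, and the density ratios were 1.51 and 2.21 in Jarid2 A and B, and 2.57 and 2.85 in Pcl A and B. The base pairs under peaks gave the same order of the proteins. For Jarid2 the covered share was 0.635% on chromosome 4 and 0.447% on the other arms in Jarid2 A, and 0.391% and 0.270% in Jarid2 B. Pcl A peaks covered 7.94% of chromosome 4 and 2.88% of the other arms, and Pcl B peaks covered 4.04% and 1.48%. By this measure arm 2R, at 0.403%, stood above chromosome 4 in Jarid2 B, while chromosome 4 ranked first in the other lists. The log2 ratio of covered shares averaged 0.99 ± 0.54 (SD, n = 4 libraries; exact sign-flip permutation p = 0.13, two-sided, again the smallest possible).

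Stretches as dense as chromosome 4 also occurred elsewhere. The other arms were cut into 85 windows of the length of chromosome 4. For Jarid2, 13 windows held at least as many Jarid2 A peaks as the 29 of chromosome 4, and 6 windows held at least as many Jarid2 B peaks as its 19. For Pcl, 3 windows reached the 160 peaks of Pcl A and 3 reached the 129 of Pcl B. The median window had 20 Jarid2 A, 11 Jarid2 B, 45 Pcl A and 34 Pcl B peaks, and the densest had 81, 49, 251 and 320 in the same order of lists.

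Median folds on chromosome 4 lay close to those elsewhere and shared no direction over the lists. The median fold was 2.90 on chromosome 4 and 3.04 on the other arms in Jarid2 A, and 3.44 and 3.00 in Jarid2 B. In Pcl A it was 3.05 on chromosome 4 and 3.10 on the other arms, and in Pcl B 4.0 and 4.06. The log2 ratio of median folds averaged 0.02 ± 0.12 (SD, n = 4 libraries), above 0 in 1 of 4, with p = 1 by the exact sign-flip permutation test. The highest folds of chromosome 4 were below those of the other arms in all 4 lists. They were 5.12, 5.04, 11.9 and 17.6 on chromosome 4 in Jarid2 A, Jarid2 B, Pcl A and Pcl B, against 9.60, 7.41, 27.5 and 46.0 on the other arms, which hold many more peaks.

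Median widths shared no direction over the lists either. Jarid2 peaks had a median width of 229 bp on chromosome 4 and 238 bp on the other arms in Jarid2 A, and of 216 bp and 249.5 bp in Jarid2 B. Pcl peaks had a median of 369 bp on chromosome 4 and 322 bp on the other arms in Pcl A, and of 245 bp and 271 bp in Pcl B. The log2 ratio of median widths averaged -0.05 ± 0.18 (SD, n = 4 libraries; exact sign-flip permutation p = 0.5). Wide peaks on chromosome 4 belonged to Pcl alone. No Jarid2 peak there was wider than 1 kb, the widest spanning 959 and 695 bp in Jarid2 A and B, while 26 Pcl A peaks and 9 Pcl B peaks were, up to 6249 bp and 3416 bp. On the other arms 0.866% of Jarid2 A peaks and 1.46% of Jarid2 B peaks passed 1 kb, so that few would be counted among 29 and 19 peaks.

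The read counts behind the peaks were close to those elsewhere for Pcl and lower for Jarid2. Counts at the summits were recovered from the fold and p-value of each peak, on the assumption that the fold is the count plus 1 over the background plus 1 and the p-value is from a Poisson law. In Jarid2 A and both Pcl lists this gave both values back, within a set tolerance, in 100% of the peaks. In Jarid2 B, 100% of the counts fell, within a set tolerance, on multiples of a scale fitted to that list. The median count was 36 on chromosome 4 and 40 on the other arms in Jarid2 A, and 24.2 and 37.5 in Jarid2 B. The Jarid2 B counts come on a reduced scale, with 1 read counted as 0.25, and cannot be compared with those of the other lists. In Pcl A the median was 26 on chromosome 4 and 26 on the other arms, and in Pcl B it was 16 in both. High backgrounds, over 3 times the lowest of the list, went in opposite directions for the proteins. They lay under 13.8% of Jarid2 A peaks on chromosome 4 and 20.5% on the other arms, and under 5.26% and 29.7% of Jarid2 B peaks. For Pcl they lay under 12.5% of Pcl A peaks on chromosome 4 and 3.16% on the other arms, and under 9.30% and 2.94% of Pcl B peaks. The part of background in the densities was not tested beyond leaving these peaks out. The counts are small in Jarid2 A and both Pcl lists, so a single fold there rests on few reads. Weak peaks can be missed in 1 library by counting error.

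The regions were not spread evenly along chromosome 4. The median gap between neighbouring regions was 546 bp, and 125 of the 183 gaps (68.3%) were at most 1 kb. Joining regions that lay up to 10 kb apart gave 24 clusters, of which 12 were a single region. The 7 clusters with 10 or more regions held 156 of the 184 regions (84.8%) in 228 kb, which is 17.3% of the length of the chromosome. They held 22 of the 29 Jarid2 A peaks (75.9%), 13 of the 19 Jarid2 B peaks (68.4%), 142 of the 160 Pcl A peaks (88.8%) and 116 of the 129 Pcl B peaks (89.9%). The longest stretch without a peak of any list was 93518 bp, from 900658 to 994175. Peaks of both proteins thus lay mostly in the same few stretches. The clusters were drawn on the merged regions, most of which had Pcl peaks alone, so the larger shares of Pcl peaks inside them follow in part from how they were drawn. Uneven spread was not particular to chromosome 4. On the other 5 arms, 121 clusters of 10 or more regions held 4415 of the 6766 regions in 5.58% of the length.

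**Figure D2:**
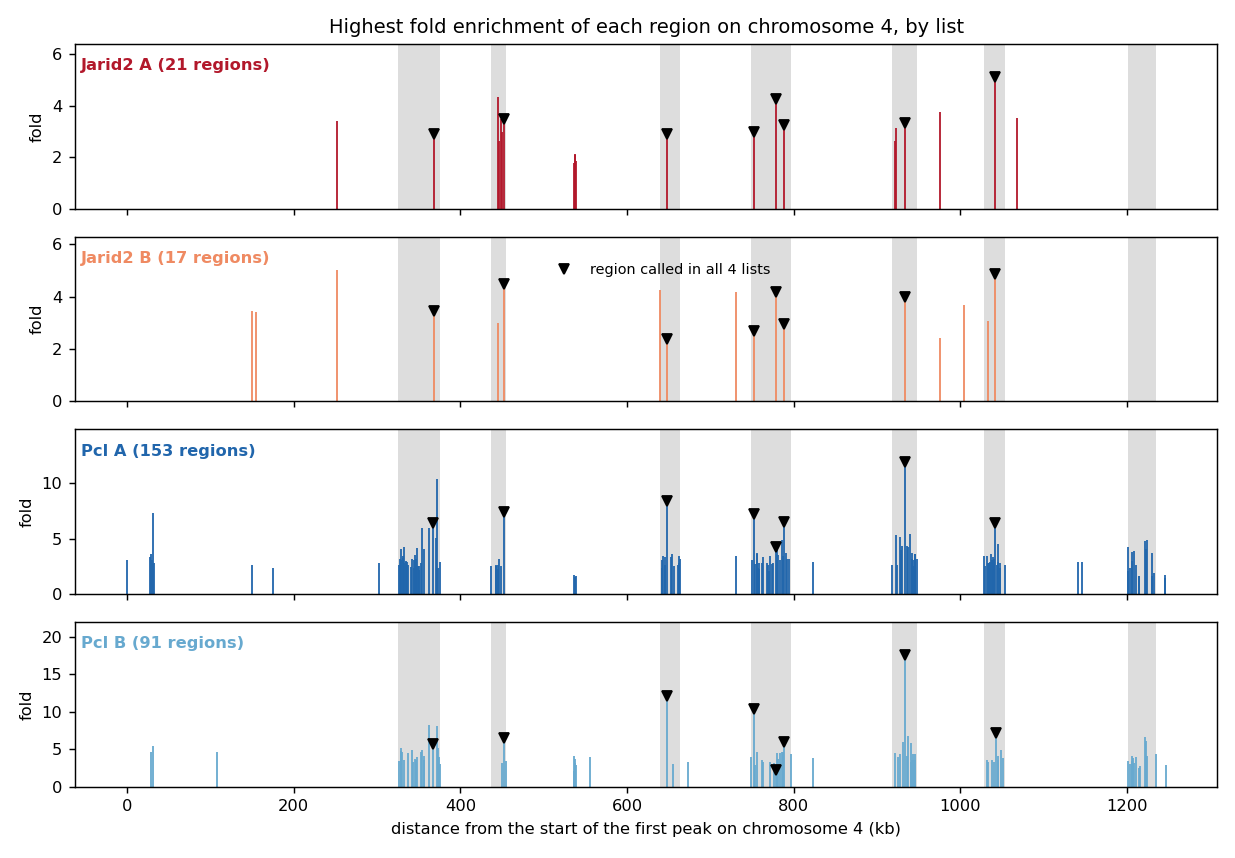
Highest fold of each region (vertical axis, 1 panel for each list, with its own scale) against the distance of the region from the start of the first peak of chromosome 4 in kb (horizontal axis). Grey bands are the 7 clusters of 10 or more regions and black triangles the 8 regions called in all 4 lists. All 8 triangles fall inside grey bands, and the band at the far right has no Jarid2 line.

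The first large cluster, chr4:402407-452530, was the longest. It had 37 regions with 2 peaks of Jarid2 A and 1 of Jarid2 B beside 35 Pcl A and 35 Pcl B peaks. Its Jarid2 folds reached 2.90 and 3.44 in Jarid2 A and B, and its Pcl folds reached 10.3 and 8.28 in Pcl A and B. It was therefore a broad Pcl cluster with Jarid2 called in 1 region within it.

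The cluster chr4:513192-531977 had a different balance. Its 10 regions held 5 Jarid2 A and 2 Jarid2 B peaks beside 9 Pcl A and 4 Pcl B peaks. Jarid2 folds reached 4.32 and 4.50 in Jarid2 A and B, and Pcl folds 7.40 and 6.44 in Pcl A and B. Of all clusters with 10 or more regions on chromosome 4, it had the most Jarid2 peaks per Pcl peak.

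The cluster chr4:716487-740178 held 15 regions, with 3 Jarid2 A, 2 Jarid2 B, 13 Pcl A and 10 Pcl B peaks. Folds there reached 2.90 and 4.24 in Jarid2 A and B, and 8.37 and 12.0 in Pcl A and B. The cluster chr4:826051-873105 held 31 regions, with 7 Jarid2 A, 4 Jarid2 B, 27 Pcl A and 22 Pcl B peaks. It was the only cluster with more than 1 region called in all lists, and it had 3 of them.

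The strongest Pcl signal of the chromosome lay in the cluster chr4:994176-1024962. It held 21 regions, with 4 Jarid2 A peaks, 1 Jarid2 B peak, 20 Pcl A and 20 Pcl B peaks. The highest Jarid2 folds were 3.34 and 4.0 in Jarid2 A and B, and the highest Pcl folds 11.9 and 17.6 in Pcl A and B. The strongest Jarid2 A signal lay in another cluster, chr4:1105470-1130118. Its 24 regions held 1 Jarid2 A, 3 Jarid2 B, 22 Pcl A and 12 Pcl B peaks, with folds of up to 5.12 and 4.87 in Jarid2 A and B, and 6.40 and 7.13 in Pcl A and B.

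The last large cluster, chr4:1277834-1311232, had 18 regions and no Jarid2 peak. Its 16 Pcl A peaks reached a fold of 4.85 and its 13 Pcl B peaks 6.69. Several of its regions, among them those between 1286276 and 1292049, lay on high background, as did the last region of the chromosome, chr4:1322781-1323858. There the background at the summit was 61.3 and 17.0 reads in Pcl A and B, against a lowest background of 6.54 and 2.70 reads in those lists, and the fold was 1.75 and 2.95 in Pcl A and B. The part of background in the Pcl calls at this end of the chromosome was not tested.

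In the deposited lists, regions called in all 4 lists made up a larger share on chromosome 4 than over the genome. Regions of Jarid2 alone made up a smaller share. Of the 184 regions of chromosome 4, 8 (4.35%, Wilson 95% interval 2.22 to 8.34%) were called in all lists, beside 1.71% of regions over all sequences. The highest share on another main arm was 2.73%, on 2R, inside that interval. Regions of all lists numbered 120 of 7007 over all sequences and 104 of 6766 on the other 5 arms. Those with at least 1 list of each protein numbered 288 and 247. The few regions on sequences outside the 6 main arms thus had larger shares of both kinds than chromosome 4. On chromosome 4 the regions of all lists numbered 3 of the 92 left with peaks at a q-value of at most 1e-05. Without peaks on a background over 3 times the lowest of their list, they numbered 5 of 177. Shares over all sequences at these settings were not computed. In the deposited lists, the count with at least 1 list of each protein was 20 (10.9%), beside 4.11% over all sequences. Regions of both Jarid2 lists with no Pcl peak numbered 2 (1.09%, interval 0.299 to 3.88%), beside 10.2% over all sequences. They numbered 1 of 92 at the stricter q-value, and 5 and 4 without Jarid2 A and without Jarid2 B, where 1 list stands for the protein. Regions of 1 Jarid2 list alone numbered 5 (2.72%), beside 12% over all sequences. The remaining regions had Pcl peaks alone. Both Pcl lists and no Jarid2 list shared 54 regions (29.3%), beside 25% over all sequences, and 103 regions (56.0%) had a peak in 1 Pcl list alone, beside 48.7%. The 54 moved with the settings, to 27 of 92 at the stricter q-value, 10 of 54 with lists of equal length and 15 of 59 with gaps of up to 1 kb merged. Without Pcl A or without Pcl B, where 1 list stands for the protein, they numbered 112 and 142. These intervals cover counting error only. Neighbouring regions are not independent of each other, and no test was made of these shares. Most merged regions had Pcl peaks alone, so the density of Pcl peaks enters every share, and its part was not tested.

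Most Jarid2 peaks on chromosome 4 overlapped a Pcl peak, which was not the case on the other 5 main arms. For Jarid2 A, 25 of 29 peaks (86.2%, Wilson 95% interval 69.4 to 94.5%) overlapped a peak of either Pcl list by at least 1 bp, beside 19.8% on the other arms and 22.2% over all sequences. For Jarid2 B, 14 of 19 (73.7%, interval 51.2 to 88.2%) did, beside 20.8% on the other arms and 22.6% over all sequences. The highest shares on another main arm were those of 2R, with 27.0% of Jarid2 A and 29.2% of Jarid2 B peaks. Over all sequences, 425 of 1916 Jarid2 A and 238 of 1055 Jarid2 B peaks overlapped a Pcl peak. On the other 5 arms the counts were 366 of 1847 and 213 of 1024. Most of the few Jarid2 peaks on sequences outside the 6 main arms thus overlapped a Pcl peak too, so the trait was not particular to chromosome 4. The difference between chromosome 4 and the other arms averaged 59.6 ± 9.55 percentage points for Jarid2 (SD, n = 2 libraries), with an exact sign-flip permutation p of 0.5, the smallest that 2 libraries can give. Pcl peaks covered 8.67% of chromosome 4 and 3.05% of the other arms, so a peak placed anywhere on chromosome 4 has more Pcl peaks to meet, and how far this enters the shares was not tested. Intervals of peak shares, here and below, cover counting error only. Peaks of a list that lie in the same region are not independent, and chr4:722426-728674 alone held 3 Jarid2 A peaks.

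In the other direction the contrast was smaller. For Pcl A, 18 of 160 peaks on chromosome 4 (11.3%, interval 7.24 to 17.1%) overlapped a Jarid2 peak, beside 5.05% on the other arms and 5.63% over all sequences. For Pcl B, 17 of 129 (13.2%, interval 8.39 to 20.1%) did, beside 6.93% on the other arms and 7.89% over all sequences. In Pcl B arm 2R, at 14.7%, stood above chromosome 4. The difference between chromosome 4 and the other arms averaged 6.23 ± 0.037 percentage points for Pcl (SD, n = 2 libraries; exact sign-flip permutation p = 0.5, the smallest possible). Over all 4 libraries the difference averaged 32.9 points and was positive in 4 of 4. Jarid2 and Pcl lists count the same overlaps from both sides, so the 4 values are not independent and no p-value is given.

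**Figure D3:**
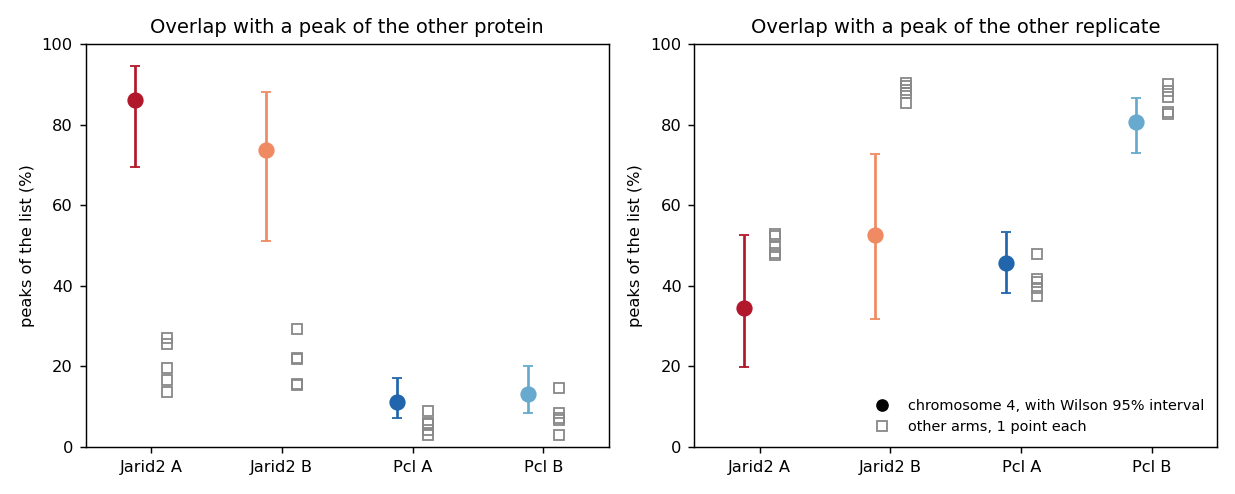
Share of the peaks of each list (vertical axis, percent) that overlap a peak of the other protein (left) or of the other replicate of the same protein (right). Filled circles are chromosome 4 with Wilson 95% intervals, and grey squares are the other 5 main arms, 1 square each. On the left both Jarid2 circles, at 86.2% and 73.7%, lie above all grey squares. On the right the Jarid2 circles, at 34.5% and 52.6%, lie below all grey squares.

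Distances gave the same picture of Jarid2 lying close to Pcl. On chromosome 4, 3 Jarid2 A peaks (10.3%) and 3 Jarid2 B peaks (15.8%) were more than 10 kb from any Pcl peak. On the other arms this held for 66.1% of Jarid2 A and 66.6% of Jarid2 B peaks. The median distance to the nearest Pcl peak was 0 bp on chromosome 4 in both lists, against 31240 and 35499.5 bp in Jarid2 A and B on the other arms. The larger density of Pcl peaks on chromosome 4 enters these distances too, and its part was not tested.

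The common base pairs of the proteins, as a share of the base pairs covered by either (the Jaccard index), averaged 6.54 ± 2.64% over the 4 pairs of a Jarid2 and a Pcl list on chromosome 4 (SD; the pairs share libraries). The pairs gave 6.29% for Jarid2 A with Pcl A, 10.1% for Jarid2 A with Pcl B, 3.79% for Jarid2 B with Pcl A and 5.93% for Jarid2 B with Pcl B. The mean on the other arms together was 3.25%, and arm 2R, at 8.54%, stood above chromosome 4. The lists cover very different lengths of chromosome 4, with 8401 bp under Jarid2 A peaks and 105108 bp under Pcl A peaks.

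In the deposited lists, replicates of Jarid2 shared a smaller part of their peaks on chromosome 4 than elsewhere, more clearly in Jarid2 B than in Jarid2 A. Of the Jarid2 A peaks there, 10 of 29 (34.5%) overlapped a Jarid2 B peak, beside 49.8% on the other arms and 49.6% over all sequences. Of the Jarid2 B peaks, 10 of 19 (52.6%, interval 31.7 to 72.7%) overlapped a Jarid2 A peak, beside 88.5% on the other arms and 87.8% over all sequences. For Pcl the shares lay nearer those of the other arms. They were 73 of 160 (45.6%) for Pcl A found in Pcl B, beside 42.4% on the other arms and 42.6% over all sequences, and 104 of 129 (80.6%) for Pcl B found in Pcl A, beside 87.0% and 86.6%. Over the 4 lists of both proteins the difference averaged -13.6 ± 16.7 points (SD), lower on chromosome 4 in 3 of 4. The lists of a protein count the same overlaps from both sides, so the 4 values are not independent and no p-value is given. Without peaks on high background, defined as over 3 times the lowest of the list, the shares for Jarid2 A were 36.0% on chromosome 4 and 37.2% on the other arms. Those for Jarid2 B were 50% and 74.7%. The lower share then rested on Jarid2 B alone, with 9 of 18 peaks on chromosome 4.

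The 8 regions called in all 4 lists were wide and held many of the strong Pcl peaks. Their median width was 3222 bp, from 936 to 6319 bp, beside 230 bp for regions of both Jarid2 lists alone and 601.5 bp for regions of both Pcl lists alone. On the other arms the regions of all lists had a median width of 2551.5 bp. The median over the 8 regions of the highest Jarid2 fold was 3.29 and 3.72 in Jarid2 A and B. For Pcl the medians in the 8 regions were 6.86 and 6.78 in Pcl A and B, beside 3.47 and 4.02 in the regions of both Pcl lists alone. Among the 10 regions of chromosome 4 with the highest folds of a list, 5 were regions of all lists in Jarid2 A and also 5 in Jarid2 B, and 7 and 5 in Pcl A and B. The 8 were among 21 and 17 regions with a peak in Jarid2 A and B, and among 153 and 91 in Pcl A and B. The counts of 5 of 10 in the Jarid2 lists are therefore close to the share of the 8 in those lists and show no preference. Wide merged regions have more room for a peak of each list, and the part of width in this was not tested.

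**Figure D4:**
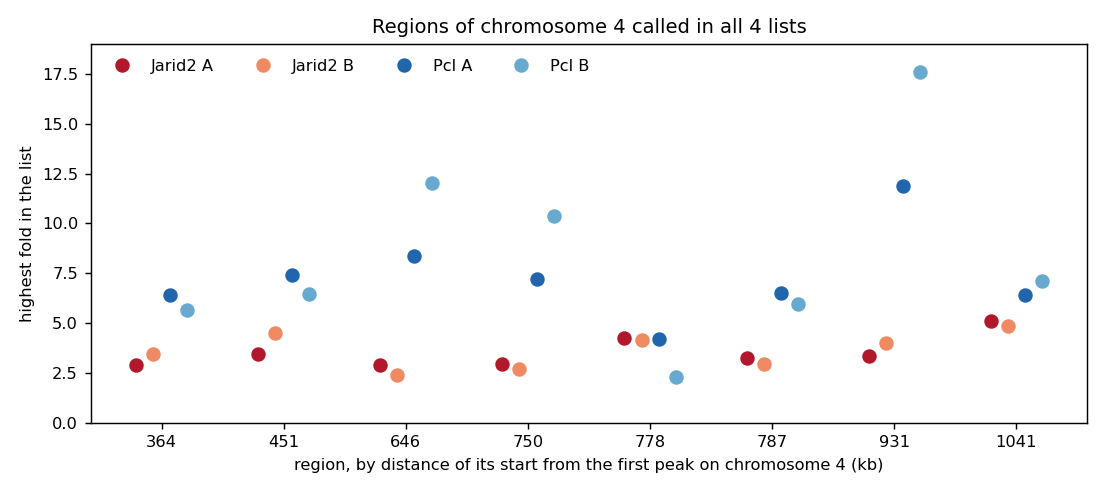
Highest fold (vertical axis, from 0) in each list for the 8 regions of chromosome 4 called in all 4 lists, placed in order along the chromosome and labelled by the distance of their start from the first peak in kb. Points are single values with no error. Heights can be compared between regions within 1 colour and not between colours, since the lists have different backgrounds. The region labelled 931 has the highest Pcl A and Pcl B points, and the region labelled 1041 the highest Jarid2 A and Jarid2 B points.

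The widest region of the chromosome, chr4:440904-447222, spanned 6319 bp. Its folds were 2.90 and 3.44 in Jarid2 A and B, and 6.39 and 5.68 in Pcl A and B. The strongest Jarid2 summit lay 912 bp from the strongest Pcl A summit in Jarid2 A, and 1456 bp from it in Jarid2 B. Jarid2 A had 2 peaks in the region, and the nearer of their summits lay 152 bp from the strongest summit of Pcl A and 79 bp from that of Pcl B. Within its cluster the highest Pcl folds were elsewhere, in regions without a Jarid2 peak.

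The region chr4:528158-530216 had folds of 3.48 and 4.50 in Jarid2 A and B, and 7.40 and 6.44 in Pcl A and B. Its summits were at 529377 and 529386 in Jarid2 A and B, and 529353 and 529342 in Pcl A and B. All 4 libraries thus placed the summit within 44 bp. The region chr4:827186-830343 showed the same closeness, with summits at 828687 and 828688 in Jarid2 A and B, and 828693 and 828663 in Pcl A and B. Its folds were 2.96 and 2.70 in Jarid2 A and B, and 7.19 and 10.4 in Pcl A and B, from summit counts of 47, 36.7, 137 and 65 in that order.

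The region chr4:1008137-1011811 held the highest fold of chromosome 4 in both Pcl lists. The folds were 3.34 and 4.0 in Jarid2 A and B, and 11.9 and 17.6 in Pcl A and B. The counts at its summits were 27 and 35.0 in Jarid2 A and B, and 262 and 158 in Pcl A and B. Its background in Pcl A, 21.1 reads, was above 3 times the lowest of the list.

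The region chr4:1117384-1120669 held the highest Jarid2 A fold of chromosome 4. Its folds were 5.12 and 4.87 in Jarid2 A and B, and 6.40 and 7.13 in Pcl A and B. Jarid2 B and both Pcl lists had their highest folds of the cluster in the same region. The Pcl B summit lay 581 bp from that of Pcl A, farther than the Jarid2 summits did.

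The region chr4:722426-728674 was 1 peak of 6249 bp in Pcl A, the widest peak of the chromosome, and 9 separate peaks in Pcl B. Its folds were 2.90 and 2.38 in Jarid2 A and B, and 8.37 and 12.0 in Pcl A and B, on a background of 17.6, 16.0, 23.3 and 8.05 reads in that order, above 3 times the lowest of the list in Jarid2 B and Pcl A. The region chr4:863938-867007 had folds of 3.25 and 2.96 in Jarid2 A and B, and 6.52 and 5.96 in Pcl A and B. The narrowest of the 8 was chr4:854761-855696. Among the regions of chromosome 4 it had rank 3 by fold in Jarid2 A and rank 90 in Pcl B. It had 4.24 and 4.17 in Jarid2 A and B, and 4.23 and 2.30 in Pcl A and B, with a Pcl B background of 8.56 reads, above 3 times the lowest of its list.

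Summits of the proteins lay close together in most of these regions. The median distance between the strongest summits was 109.5 bp from Jarid2 A to Pcl A, 176.5 bp from Jarid2 A to Pcl B, 50 bp from Jarid2 B to Pcl A and 83.0 bp from Jarid2 B to Pcl B. Replicates gave 192 bp between the Jarid2 lists and 25.5 bp between the Pcl lists. The median distance between proteins was therefore no larger than that between the Jarid2 replicates. Within 500 bp lay 7 of 8 summit pairs of Jarid2 A and Pcl A, 6 of Jarid2 A and Pcl B, 7 of Jarid2 B and Pcl A and 6 of Jarid2 B and Pcl B. Jarid2 summits lay on either side of the Pcl summit, as the Jarid2 A summit was to the right of the Pcl A summit in 4 of 8 regions and the Jarid2 B summit in 3 of 8.

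**Figure D5:**
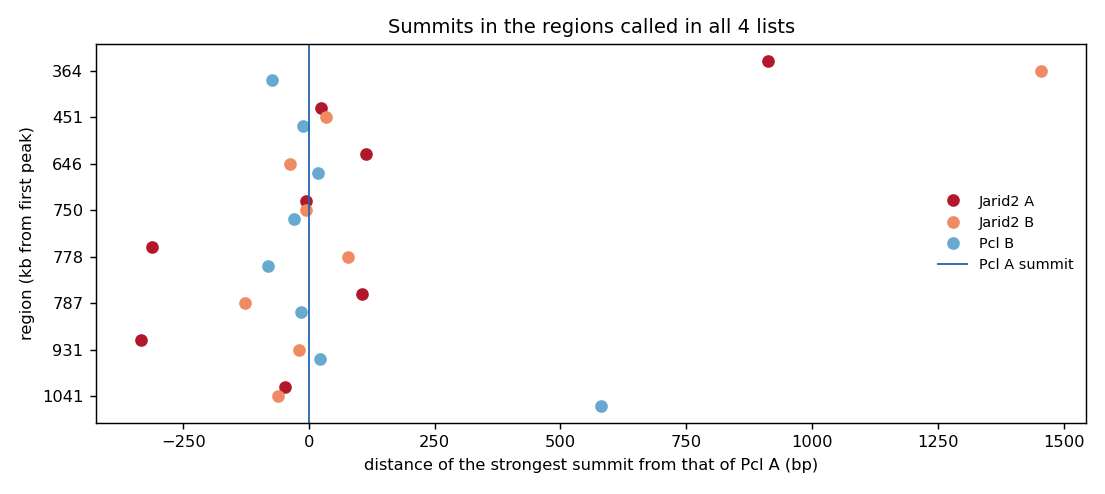
Distance in bp (horizontal axis) of the strongest summit of Jarid2 A, Jarid2 B and Pcl B from that of Pcl A, which is the line at 0, in the 8 regions called in all lists (vertical axis, labelled by kb from the first peak). Most points lie within 500 bp of the line. The exceptions are both Jarid2 summits of the region labelled 364, at 912 and 1456 bp, and the Pcl B summit of the region labelled 1041, at 581 bp.

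Regions called in all lists were found in most of the large clusters of chromosome 4. Of its 7 clusters with 10 or more regions, 6 (85.7%) held at least 1, beside 51 of 121 clusters (42.1%) on the other arms and 44.5% on all 6 main arms. In 5 of the 7 (71.4%) such a region held the highest fold of the cluster in both Pcl lists, beside 31 of 121 (25.6%) on the other arms. Only a cluster with a region of all lists can meet this. Among such clusters it was met by 5 of 6 on chromosome 4 and 31 of 51 on the other arms. With 7 clusters the Wilson 95% interval of the first share, 48.7 to 97.4%, is wide. It holds the 57.1% of 2L, the highest such share on another arm. The cluster without such a region was chr4:1277834-1311232, which had no Jarid2 peak. In the cluster chr4:402407-452530 the highest Pcl folds were outside the region of all lists.

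Another 12 regions had peaks of both proteins but not of all lists, 6.52% of the 184 and 2.4% of regions over all sequences. The 4 named among them each had a peak of 1 Jarid2 list and 1 Pcl list. The rank that chose them averages over the lists that hold a region, and since Pcl lists have many more regions, a poor Pcl rank weighs most. The region chr4:998880-999900 had a fold of 3.14 in Jarid2 A and 5.31 in Pcl A, and its neighbour chr4:998468-998773 had 2.63 in Jarid2 A and 4.57 in Pcl B. The region chr4:807944-808205 stood alone, with 4.20 in Jarid2 B and 3.48 in Pcl A. The region chr4:523375-523787 had 2.64 in Jarid2 A and 3.17 in Pcl A. Of the rest, 4 lay in the group described next, and the highest Jarid2 fold among all 12 was 4.32, in Jarid2 A. It belonged to chr4:522130-522763, singled out after its values were seen, which ranked 2 by fold in Jarid2 A and 121 in Pcl A and so was not among those named.

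A group of 5 regions within chr4:612653-616091, chosen after its values were seen, was unlike the others. It had no Jarid2 B peak. In 4 of the 5 regions Jarid2 A had a peak, with folds of 1.77 to 2.11, and Pcl B had one in all 5. The backgrounds there were 42.0 to 67.2 reads in Jarid2 A, beside a lowest background of 6.23 in that list, and 13.4 to 23.4 reads in Pcl B. All 4 Jarid2 A peaks of chromosome 4 with a background over 3 times the lowest of the list lay here. The part of background in these calls was not tested.

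Jarid2 without Pcl was rare on chromosome 4. The 2 regions of both Jarid2 lists alone were narrow and each stood by itself. The first, chr4:328727-328958, had folds of 3.39 and 5.04 in Jarid2 A and B, the highest Jarid2 B fold of the chromosome. The second, chr4:1052529-1052756, had 3.77 and 2.44 in Jarid2 A and B. On the other arms this class made up 10.5% of the regions. The 5 regions of 1 Jarid2 list alone were of the same narrow kind, with a median width of 200 bp and folds of 2.97 to 4.24.

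Pcl without Jarid2 was the usual state, and it included strong sites. The region chr4:448338-449732 had a fold of 10.3 and 8.11 in Pcl A and B, and the region chr4:436819-440656 had 5.96 and 8.28 in Pcl A and B. They flank the widest region of all lists on either side. The region chr4:107431-108502, far from the large clusters, had 7.30 and 5.41 in Pcl A and B. The others named were chr4:1014726-1017833, with 5.44 and 5.84 in Pcl A and B, and chr4:1298706-1299143, with 4.74 and 6.69 in Pcl A and B. The first region along the chromosome, chr4:76767-77008, was a Pcl A peak with a fold of 3.05. The 103 regions of 1 Pcl list alone were weaker, with a median width of 235 bp and a median fold of 2.79 and 3.89 in Pcl A and B.

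Across regions, folds went together between the Pcl replicates and much less between the proteins. Over the 11 regions of chromosome 4 held by both Jarid2 lists, Pearson's r was 0.43 and Spearman's rho 0.49. Over the 67 regions held by both Pcl lists r was 0.82 and rho 0.65. Between a Jarid2 and a Pcl list, over 9 to 15 regions, r ranged from -0.15 to 0.32. These are descriptions across regions that share their libraries and depth, and the small n of the pairs with Jarid2 leaves wide error.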

How the data were processed

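Per the labels' protocols, chromatin of formaldehyde-fixed embryos was sheared by sonication before the purification of the tag in both steps. Per the submitters' processing notes, Trimmomatic 0.36, Bowtie 1.2.2, deepTools 3.0.2 and MACS2 2.1.1 were used with genome build dm3. Their settings and the control are not given in the sources used here. The authors deposited 1 peak list of 10 columns for each immunoprecipitated library, with replicates not pooled. In the deposited lists, the fold of a peak is a linear ratio over background, and p and q are −log10 values. The deposited score equals 10 times −log10 q, cut to a whole number. The lowest −log10 q was 1.31 to 1.35, where a q of 0.05 would be 1.30. Read depth is unknown.

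Starts were made 1-based. The length of an arm was the highest peak end over the 4 lists, and the other arms were X, 2L, 2R, 3L and 3R. Overlapping or touching peaks of the 4 lists were joined into regions. Overlap of 2 lists needed at least 1 bp. Shares carry Wilson 95% intervals. Tests were exact permutation tests over libraries, two-sided, with a threshold of 0.05. Their p-values take the library as the unit and do not measure the spread between libraries. Most were the smallest that the number of libraries allows. Summit counts and backgrounds were recovered from fold and p, within a relative tolerance of 0.001 in Jarid2 A and both Pcl lists. The counts of Jarid2 B needed a reduced scale and were accepted within 0.005 reads of a multiple of it. The recovery was tested on simulated data, but not at the count scale of Jarid2 B. PCR reads are not independent molecules, so intervals cover counting error only.

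Regions were named by a rule. It takes the 12 regions with peaks of both proteins, out of 20, that had the smallest mean rank of fold, up to 5 of both Jarid2 and of both Pcl lists alone, and the widest, first and last region. The members, lists and tests were chosen with earlier results of these data known. Alternatives were a stricter q, lists of equal length, covered base pairs, another arm length, merging across 1 kb, leaving out each library, and same-letter pairs. Leaving out peaks on high background, crossed letters and all alternatives for the share of Jarid2 peaks on Pcl peaks were chosen after seeing the data. Letters A and B do not pair the samples by any label. The work was done in Python 3.11.15 with matplotlib 3.10.9, pandas 2.3.3, scipy 1.17.1 and numpy 2.4.6.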

Additional observations from a re-analysis of the deposited data

How the results depend on the processing

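Of 62 alternatives over 7 results, 52 kept the result, 10 moved it and 0 reversed it. Kept means the same sign for densities and shares. For region counts it means within a set factor of the main count, and for the Jaccard index within the SD of its pairs. Counts and the Jaccard index could only be kept or moved, so the 0 says nothing of them. Leaving out a library could not reverse the density results, as the ratios were above 0 in all lists and the proteins did not overlap. The log2 density ratio of chromosome 4 to the other arms stayed between 0.90 and 1.28, and its difference between Jarid2 and Pcl between -1.28 and -0.57, the weakest without peaks on high background. With the letter as a replicate block that difference was -0.97, with an exact permutation p of 0.5, the smallest possible. The Jaccard index was 4.70 to 8.24% under its alternatives, 6.11% in the replicate block of same-letter pairs and 6.96% with letters crossed. The difference in calls between Jarid2 A and B had a correlation of -0.09 with that between Pcl A and B over the 184 regions. Few regions differed within both proteins, so this check could hardly show a pairing and nothing is concluded from it. The share of Jarid2 peaks on Pcl peaks exceeded that of the other arms by 44.2 to 66.4 points.

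Counts of regions depended more on the settings. Regions of all lists numbered 3 at a q of at most 1e-05 and 5 without peaks on high background, and 7 to 12 without a library. Regions of both Jarid2 lists alone numbered 1 at that q and 2 to 5 without a library. Regions of both Pcl lists alone numbered 27 at that q, 10 with lists of equal length, 15 with merging across 1 kb, and 55 to 142 without a library. When a library was left out, the remaining list stood for its protein, so counts without Jarid2 A (5) or Jarid2 B (4) for Jarid2 alone, and without Pcl A (112) or Pcl B (142) for Pcl alone, rest on 1 list. The cause of the other changes was not tested. Libraries of unknown depth, 2 for each protein, limit all comparisons of proteins.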
